A study of Gallus gallus with 48 samples.

Results

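The livers of growing male Beijing-You chickens, an indigenous Chinese breed, were examined for 3 enzymes on the route from glucose to fatty acids: fatty acid synthase (FAS), acetyl-CoA carboxylase (ACC) and pyruvate kinase (Pyr-kin). The names are those of the probe columns in the authors' table of log2 values, and the 3 genes are all the panel's probes with those names, of 20 genes in all. The files do not give a gene identifier, a genome position, a probe sequence or the isozyme for any of them. Each of the 4 ages, 6, 8, 10 and 12 weeks, had 12 liver samples, 6 carrying the dye Cy3 and 6 carrying Cy5, with 1 sub-array of a printed slide per sample. The labels name no treatment, diet or feeding state for any of the 48 samples, and age is the only group. According to the submitters' note samples 5 and 8 of 8 weeks are technical replicates of 1 extract, so they were averaged in the fits, leaving 47 units. Both were left out of the exact test of samples measured by dye, leaving 46. The counts, ranges, medians, means and SDs given by age or dye include both samples.

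In birds the liver is the main site of fatty acid synthesis. Pyruvate kinase catalyses the last step of glycolysis and yields pyruvate, from which mitochondria make the citrate that carries acetyl units to the cytosol. ACC turns acetyl-CoA into malonyl-CoA, the committed step, and is switched off when the kinase AMPK phosphorylates it. FAS then joins malonyl units into palmitate. The panel also held Spot14a and Spot14b, 2 forms of a thyroid hormone responsive protein linked to lipogenesis, and 2 regulatory gamma subunits of AMPK (AMPKg2 and AMPKg3).

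A deposited value is relative. Apart from 1 constant per sample it followed the log2 of the background-subtracted scanner signal. The median absolute deviation was 0.0057 as the median over samples and 0.388 in the sample where it was highest. The constant ranged from -3.20 to 1.79. The brightest of the 10 beta-actin and Gapdh probes lay between 12.1 and 13.1 in every sample, with an SD of 0.208, so the values are in effect relative to each sample's brightest housekeeping probe. That scaling was read from the values and is not stated. The brightest probe was a beta-actin probe in 26 samples and a Gapdh probe in 22. The liver markers, L-FABP (liver fatty acid-binding protein) and Apo-B, had a value in 37 and 36 of the 48 samples. They exceeded their local background by 2 SD in 13 and 5. Of the other tissues' markers, H-FABP (heart and muscle) had a value in 45 samples, LPL in 45 and the mouse leptin probe in 14. They exceeded background by 2 SD in 25, 16 and 1, so the panel's markers do not separate liver from other cells.

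How often the 3 enzymes could be measured differed widely. Pyr-kin had a value in all 48 samples and exceeded its local background by 2 SD in 35. FAS had a value in 40 samples and exceeded background by 2 SD in 25. ACC had a value in 20 samples and exceeded background by 2 SD in 3, so most of its values lie close to the detection limit. Of the 28 missing ACC values, 8 had a scanner signal at or below background. Of the 8 missing FAS values this was so in 3.

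**Figure D1:**
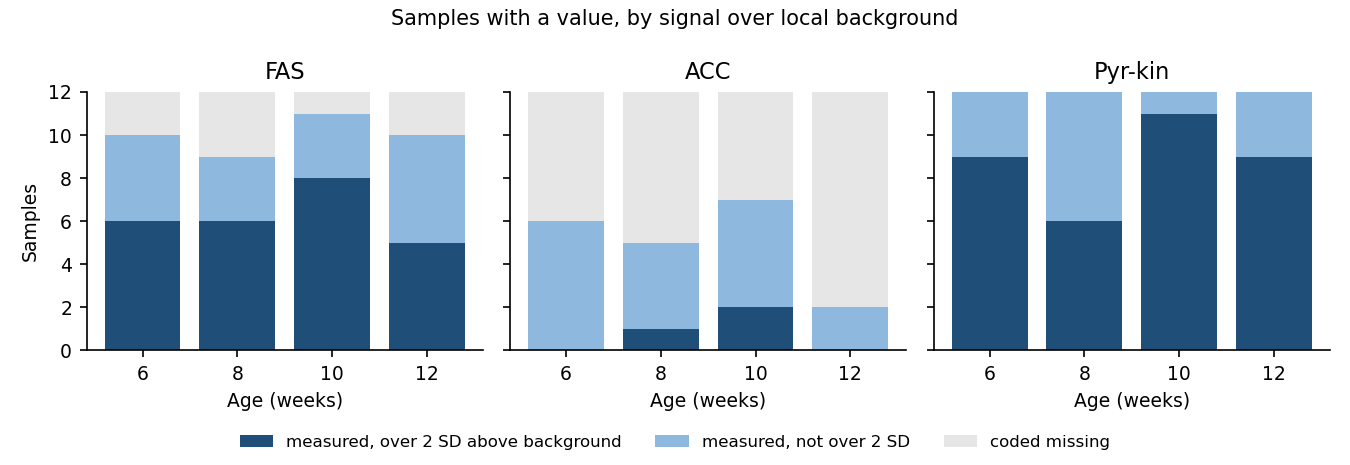
Number of samples per age (12 each) with a deposited value over 2 SD above local background (dark), with a value not over 2 SD (light), or coded as missing (grey), for FAS, ACC and Pyr-kin. Pyr-kin has a value in every sample, and ACC has one in 2 of 12 samples at 12 weeks.

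By age, FAS was measured in 10, 9, 11 and 10 of 12 samples at 6, 8, 10 and 12 weeks. ACC was measured in 6, 5, 7 and 2 samples at the same ages. No relation of the share measured to age was called for FAS (Fisher's exact test, p = 0.666, adjusted p = 1) or for ACC (p = 0.182, adjusted p = 0.912). With 12 samples per age this does not show that the shares were equal. None of the 20 panel genes passed this test (0% called), at an unadjusted p under 0.05 either. Both ACC values at 12 weeks came from Cy5 samples. The 2 spots printed for each probe also differed in how well they agreed. The SD of a single spot, from the difference between the 2, was 0.23 on the log2 scale for Pyr-kin, 0.78 for FAS and 1.00 for ACC. The SD between samples, of values that combine 2 spots, was 1.65 for Pyr-kin, 1.99 for FAS and 1.27 for ACC. For ACC it was not far above the SD of a single spot, though a mean of 2 spots varies less than 1 spot.

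Pyr-kin, the glycolytic enzyme, had its highest mean at 10 weeks and its lowest at 12 weeks. Its relative level ran from 9.91 to 15.66 at 6 weeks, with a median of 11.11 and a mean of 11.72 ± 1.76 (SD, n = 12). At 8 weeks it ran from 9.40 to 13.60, with a median of 11.15 and a mean of 11.45 ± 1.38 (SD, n = 12 samples, or 11 units with the technical pair as 1). At 10 weeks the range was 10.52 to 14.04, the median 11.95 and the mean 12.12 ± 1.11 (SD, n = 12). The 12-week samples reached from 8.09 to 13.78, with a median of 9.88 and a mean of 10.67 ± 2.03 (SD, n = 12). All 4 ages overlapped, and 12 weeks held both low and high samples. Ordered by mean, 10 weeks was followed by 6, 8 and 12 weeks, and no neighbours in that order differed beyond their spread.

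FAS, which makes palmitate, likewise had its highest mean at 10 weeks and its lowest at 12 weeks. It ranged from 6.71 to 12.51 at 6 weeks, with a median of 10.39 and a mean of 10.37 ± 2.02 (SD, n = 10). At 8 weeks the range was 7.48 to 14.15, the median 11.54 and the mean 10.94 ± 2.18 (SD, n = 9 samples, or 8 units with the technical pair as 1). At 10 weeks it was 8.62 to 12.85, with a median of 11.88 and a mean of 11.08 ± 1.49 (SD, n = 11). At 12 weeks the values lay between 6.22 and 12.28, with a median of 9.41 and a mean of 9.60 ± 2.19 (SD, n = 10). The ranges overlapped at every age. Ordered by mean, 10 weeks was followed by 8, 6 and 12 weeks, and no neighbours in that order differed beyond their spread.

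ACC, the committed step, was measured too seldom for a firm order. At 6 weeks 6 values ran from 7.36 to 9.36 (mean 8.63 ± 0.80, SD, n = 6). The 5 values at 8 weeks were 8.28, 9.46, 10.44, 10.55 and 11.86 (mean 10.12 ± 1.34, SD, n = 5). At 10 weeks 7 values ran from 7.30 to 10.59 (mean 8.92 ± 1.07, SD, n = 7). The 2 values at 12 weeks were 6.59 and 8.27. Those 2 lay below all 8-week values, the higher of them only just (8.270 against 8.281), and the other ages overlapped each other. The highest ACC value of all, 11.86 in sample 11 of 8 weeks, came from a sub-array where the ACC spots also exceeded background by 13.2 SD in the Cy3 sample's unlabelled Cy5 channel.

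**Figure D2:**
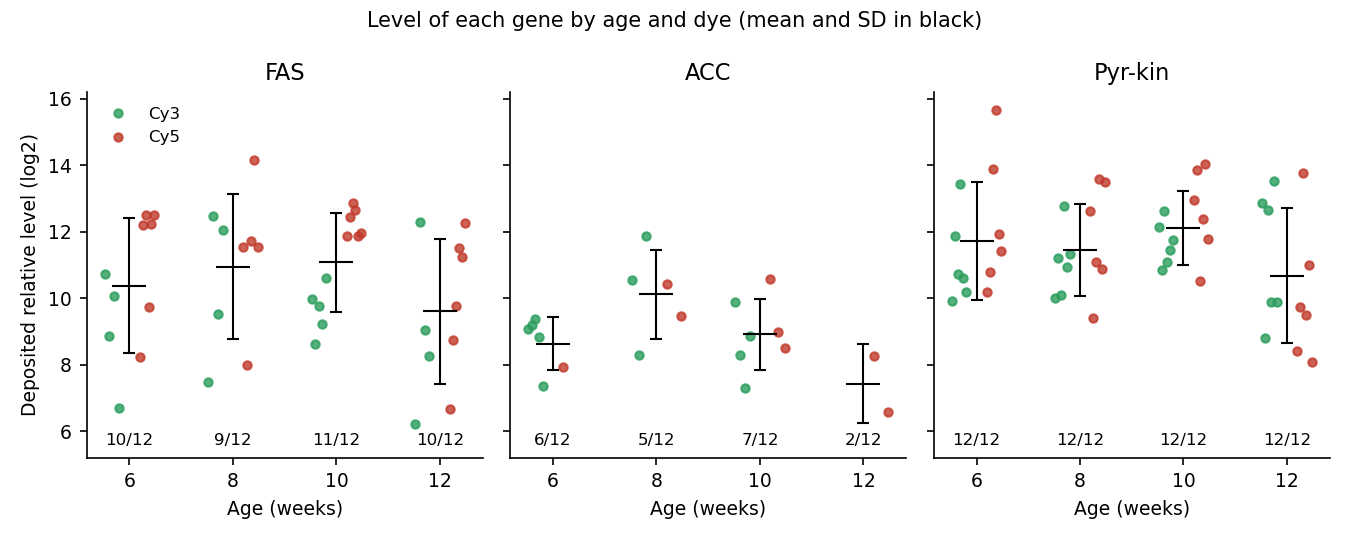
Deposited relative level (log2) of FAS, ACC and Pyr-kin in each measured sample by age in weeks, with Cy3 samples in green and Cy5 samples in red; black bars show mean ± SD and the fractions below count measured samples. Ages overlap for all 3 genes, except that the 2 ACC values at 12 weeks lie below the 8-week values, the higher of them only just. Cy5 samples lie above Cy3 samples for FAS at 10 weeks.

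None of the 3 enzymes was called for a change with age. In limma's moderated F test with dye as a term, the adjusted p was 0.518 for each of FAS (p = 0.158), Pyr-kin (p = 0.155) and ACC (p = 0.142). None of the 20 genes was called (0%), and 1 of the 20, G-S-T, had an unadjusted p under 0.05. The fitted slope per week was -0.09 ± 0.12 (SE) for FAS, -0.12 ± 0.10 for Pyr-kin and -0.11 ± 0.19 for ACC on the log2 scale, and no slope of the panel was called (0% of 20).

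Among the 6 age pairs, the step from 10 to 12 weeks was where FAS and Pyr-kin differed most. FAS was lower at 12 weeks by a fitted log2 difference of -1.58 ± 0.72 (SE; 95% interval -3.01 to -0.15; limma p = 0.0308, adjusted p = 0.626). For Pyr-kin the difference was -1.44 ± 0.64 (interval -2.73 to -0.16; limma p = 0.0278, adjusted p = 0.626). For ACC it was -1.53 ± 1.23 (limma p = 0.220, adjusted p = 0.812). ACC's difference with the smallest p was 12 against 8 weeks, -2.73 ± 1.29 (limma p = 0.0383, adjusted p = 0.641), and it rests on 2 samples at 12 weeks. Its 8-week values include 11.86 in sample 11, where the ACC spots also had signal in the unlabelled channel. None of the 120 gene and age-pair tests was called (0%), and 8 had an unadjusted p under 0.05, of which 3 belonged to these enzymes. Between 6 and 12 weeks the fitted differences were -0.77 ± 0.73 for FAS, -1.04 ± 0.64 for Pyr-kin and -1.26 ± 1.33 for ACC, and their intervals all included 0.

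On the deposited scale the lower values at 12 weeks were not limited to lipogenic enzymes. All 20 panel genes had a fitted 12 minus 10 weeks difference below 0 on the deposited scale, with a median of -0.90. After centring on the housekeeping mean the count below 0 was 15 of 20 (median -0.28). It was 6 of 20 after centring on the panel median (0.23) and 9 of 20 from scanner intensities (0.07), which were also centred on the panel median. That centring sets the middle of each sample's panel to the same level. The counts under it therefore cannot show whether the panel as a whole moved. The middle of the panel moved in the same way, with a median over samples of 10.01, 10.14, 10.61 and 8.78 at 6, 8, 10 and 12 weeks. The mean of all measured housekeeping probes was also lowest at 12 weeks, at 9.48, against 10.30, 10.59 and 10.58 at the younger ages. Centred on each sample's median panel gene, the 12 minus 10 weeks difference became 0.20 ± 0.56 for FAS, 0.20 ± 0.72 for ACC and -0.14 ± 0.46 for Pyr-kin (adjusted p = 0.980 for each). Centred on the housekeeping mean, it was -0.45 ± 0.55 for FAS, -0.44 ± 0.89 for ACC and -0.61 ± 0.49 for Pyr-kin. The size of the 12-week difference therefore depended on the per-sample scale, and its sign turned for FAS and ACC under the first centring.

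**Figure D3:**
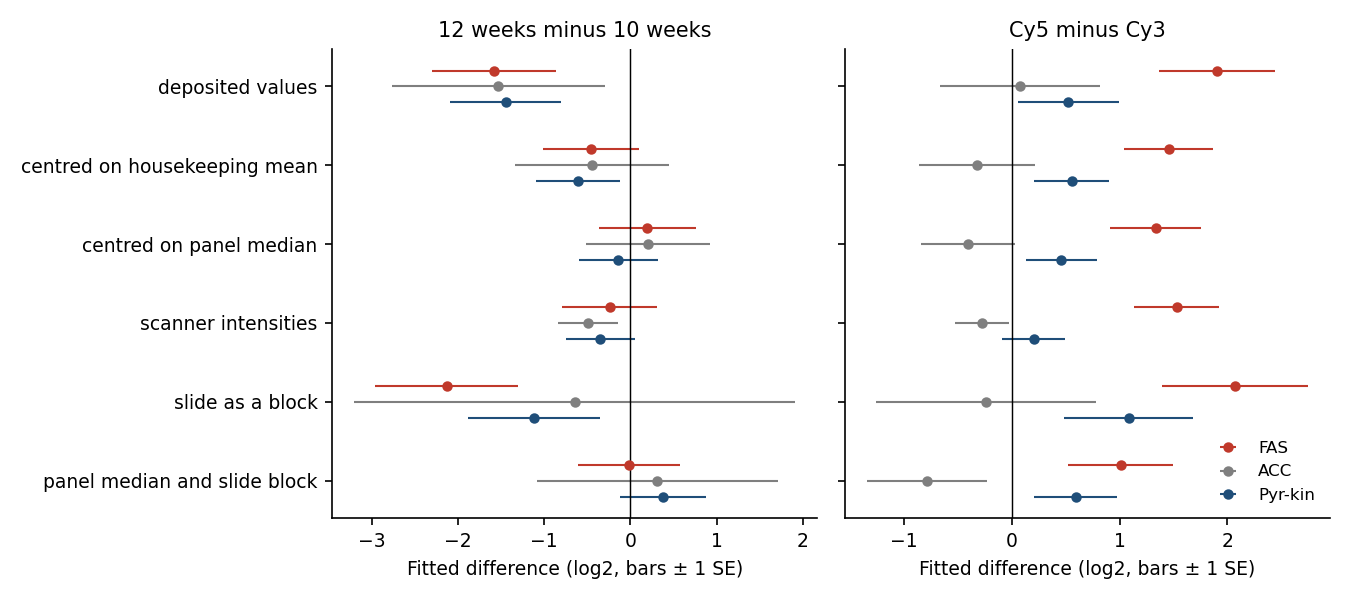
Fitted log2 differences (points) with 1 SE (bars) for FAS, ACC and Pyr-kin under 6 ways of scaling or blocking, for 12 minus 10 weeks on the left and Cy5 minus Cy3 on the right. The scanner intensities were also centred on each sample's panel median. The 12-week differences near -1.5 in the deposited values move to between -0.14 and 0.20 after centring on the panel median, while FAS remains above 0 for dye in each setting shown.

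The other genes of lipogenesis and the AMPK subunits also gave no call across ages. Spot14a differed between 12 and 10 weeks by -0.31 ± 0.66 (limma adjusted p = 0.902) and Spot14b by -0.13 ± 0.91 (adjusted p = 0.947). AMPKg2 differed by -0.40 ± 0.88 (adjusted p = 0.902) and AMPKg3 by -1.37 ± 0.68 (adjusted p = 0.641). In the F test 0 of these 4 genes were called. Spot14b had 22 values and AMPKg2 had 27, fewer than Spot14a and AMPKg3 with 41 each.

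FAS differed between samples of the 2 dyes. Cy3 samples ran from 6.22 to 12.46 with a mean of 9.52 ± 1.80 (SD, n = 17), and Cy5 samples ran from 6.68 to 14.15 with a mean of 11.23 ± 1.83 (SD, n = 23). With age in the fit FAS was higher with Cy5 by 1.90 ± 0.54 on the log2 scale (95% interval 0.83 to 2.98; limma adjusted p = 0.0118). FAS exceeded background by 2 SD in 8 of the 24 Cy3 samples and 17 of the 24 Cy5 samples, and no fold is given. Pyr-kin differed by 0.53 ± 0.47 (interval -0.40 to 1.45, adjusted p = 0.634) and ACC by 0.08 ± 0.75 (interval -1.42 to 1.57, adjusted p = 0.949). Of the 20 genes 4 were called for dye (20%): FAS and UCP (uncoupling protein) were higher with Cy5, by 1.90 and 1.29, and CPT-1 (which brings fatty acids into mitochondria) and OBR (the leptin receptor) were lower, by -1.86 and -1.33. CPT-1 and OBR also exceeded background by 2 SD in the Cy3 channel of 17 of the 24 samples without Cy3, where FAS and UCP did so in 0, and in the Cy5 channel of 6 of the 24 without Cy5. The part of this signal in the dye differences was not tested. The calls of UCP, CPT-1 and OBR depended on the setting: that of UCP was lost with slide or replicate number as a block, that of CPT-1 with slide, and that of OBR with either block, with centring on the panel median, and without any 1 of 4 samples (sample 9 of 6 weeks, 10 of 8 weeks, and 1 or 10 of 12 weeks; adjusted p = 0.0517 to 0.0702 in limma). Whether FAS differs from Pyr-kin in its dye coefficient was tested within samples and did not pass after adjustment: FAS minus Pyr-kin was higher with Cy5 by 1.32 (permutation p = 0.0420, adjusted p = 0.0841 over 2 tests), and its relation to age had a permutation p of 0.595.

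The dye difference in FAS was seen at each age in the means. FAS averaged 9.08 with Cy3 and 11.23 with Cy5 at 6 weeks, 10.38 and 11.39 at 8 weeks, 9.64 and 12.28 at 10 weeks, and 8.96 and 10.03 at 12 weeks. At 10 weeks the groups did not overlap, with Cy3 values of 8.62 to 10.61 (n = 5) and Cy5 values of 11.88 to 12.85 (n = 6). At the other ages they overlapped. Among the 7 slides that held measured samples of both dyes, the Cy5 mean was higher in 5. FAS was also missing more often with Cy3: it was measured in 17 of 24 Cy3 samples and 23 of 24 Cy5 samples. These counts include the technical pair, measured with both dyes. Over the 46 samples without that pair, Fisher's exact test gave p = 0.0470 (adjusted p = 0.188). Of the 20 genes 0% were called by this test, and 5 had an unadjusted p under 0.05. Without sample 12 of 8 weeks the adjusted p for FAS was 0.0458 by the same exact test. With slide as a block and each sample centred on its panel median, a combination chosen after seeing the data, FAS differed by 1.01 ± 0.49 and was no longer called (limma p = 0.0437, adjusted p = 0.219). Each age held 6 samples of each dye, so age and dye were balanced by design over all samples. The measured ACC values were not: 5, 3, 4 and 0 had Cy3 and 1, 2, 3 and 2 had Cy5 at 6, 8, 10 and 12 weeks. Dye was not balanced over slides either, as 8 of the 11 held both dyes. Without slide as a block, dye differences can therefore include differences between slides.

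The technical pair was read once with each dye. FAS read 11.73 in sample 5 (Cy5) and 12.46 in sample 8 (Cy3), a difference of 0.73. Pyr-kin read 11.09 and 12.78, a difference of 1.69. Both genes were higher in sample 8, and these differences include the scale of each sample. The median measured panel gene read 8.20 in sample 5 (13 genes) and 10.23 in sample 8 (14 genes), a wider gap than for FAS or Pyr-kin. The part of dye in this pair was not tested. ACC was missing in both.

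Samples of 1 age differed widely from each other, and the spread of FAS and Pyr-kin had its smallest value at 10 weeks. This spread includes the scale and the measurement error of each sample. The technical pair, 1 extract read on 2 sub-arrays, differed by 0.73 for FAS and 1.69 for Pyr-kin. The part due to birds was not tested. After removing age means and dye, the residual SD of FAS was 1.70, 2.14, 0.68 and 2.16 at 6, 8, 10 and 12 weeks. For Pyr-kin it was 1.69, 1.28, 1.02 and 2.13. No difference in spread between ages was called by a Brown-Forsythe permutation test for FAS (p = 0.0946, adjusted p = 0.526) or for Pyr-kin (p = 0.160, adjusted p = 0.526). None of the 18 genes with enough values was called (0%), and 1, AMPKg2, had an unadjusted p under 0.05. AMPKg2 was called without sample 1 of 6 weeks (permutation adjusted p = 0.0198) or sample 10 of 6 weeks (0.0450). ACC had too few values at 12 weeks for this test. No value was set apart from the rest of its age by a gap test, among the FAS and ACC groups of 5 to 10 values.

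FAS and Pyr-kin varied together weakly between samples. Over 39 units, with age and dye removed, Pearson's r was 0.341 (permutation p = 0.0325, adjusted p = 0.0468 over 190 pairs of panel genes) and Spearman's rho was 0.249 (permutation p = 0.126, adjusted p = 0.152). On this scale 70.5% of the 190 pairs were called by Pearson's r and 65.3% by Spearman's rho, with a median r of 0.589, so r for FAS and Pyr-kin was below the panel's middle. Without the 2 units farthest from the median of FAS, r was 0.193. That removal also narrows the range of FAS, which can lower r by itself. The call was lost in 18 of the 48 fits that left out 1 sample, and r was lowest, 0.241, without sample 6 of 12 weeks. On the slide with 11 shared units r was 0.0745, and on the one with 6 it was 0.751. Centred on the panel median, taken over the genes measured in each sample with these enzymes included, r was -0.127 (adjusted p = 0.750). For FAS and ACC r was 0.421 over 16 units (permutation p = 0.106, adjusted p = 0.130; rho 0.391, permutation p = 0.137) and 0.105 without the farthest 2. With 1 sample left out, the r of FAS and ACC was lowest, 0.2135, without sample 11 of 8 weeks. The ACC spots of that sample also had signal in its unlabelled channel. Samples 5 and 12 were the only 2 with an ACC value at 12 weeks, and this r was 0.561 without sample 5 and 0.595 without sample 12. Either removal leaves 1 ACC value at that age. Removing the age mean then sets its residual to 0, so no call is given for these 2 fits. For Pyr-kin and ACC r was 0.304 over 20 units (permutation p = 0.193, adjusted p = 0.223; rho 0.411, permutation p = 0.0744) and 0.279 without the 2 units farthest from the median of ACC. No slide held 6 samples in which ACC and another of these enzymes were measured.

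Of the panel's other genes UCP was the one most like FAS. Over 39 units Pearson's r of their residuals was 0.751 and Spearman's rho was 0.642 (permutation p = 1e-05 for both, the smallest that the permutations can give; adjusted p = 8.26e-05 and 9.5e-05). Without the 2 units farthest from the median of FAS, r was 0.672. It was 0.817 on the slide with 11 shared units, 0.730 on the one with 6, 0.755 within the Cy3 samples and 0.749 within the Cy5 samples. Centred on the panel median, r was 0.599 (permutation adjusted p = 0.0190), and 2 of the 190 pairs were called on that scale (1.05%). UCP, like FAS, was higher with Cy5, and the part of dye in this correlation beyond its removed mean was not tested.

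**Figure D4:**
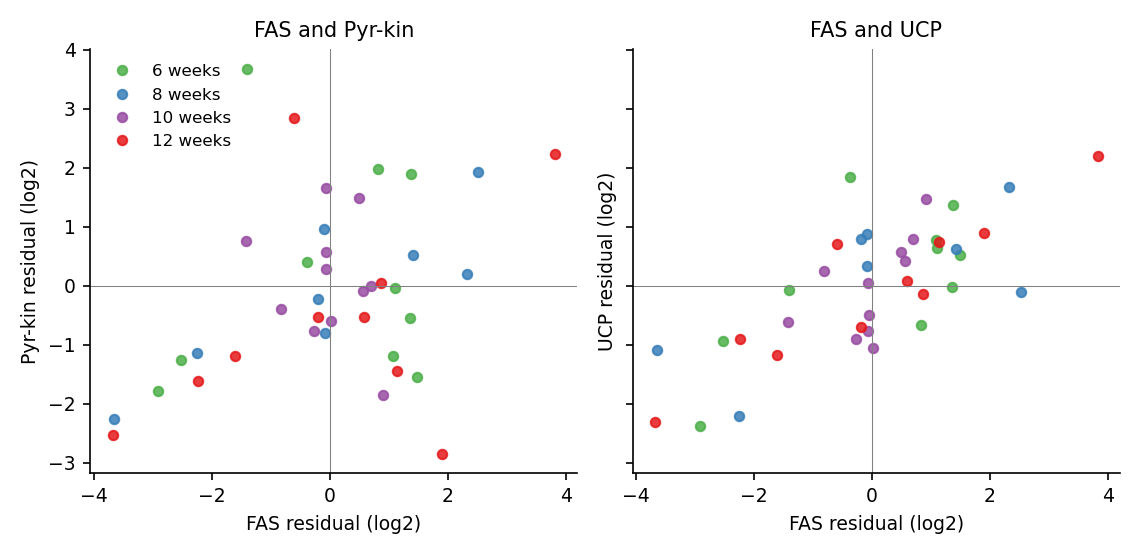
Residuals (log2) of Pyr-kin (left) and UCP (right) against those of FAS after removing age means and dye, 1 point per unit, coloured by age. FAS and UCP residuals follow each other (r = 0.751), and those of FAS and Pyr-kin scatter more widely (r = 0.341).

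Next most like FAS were CPT-1, with rho 0.610 over 33 units (r = 0.610), and AMPKg3, with rho 0.495 over 37 units (r = 0.551). Both passed the adjusted permutation test on the deposited scale, CPT-1 at 0.000718 and AMPKg3 at 0.00518 for rho, on a scale where 65.3% of all pairs did so. Centred on the panel median neither passed, with r of 0.230 for CPT-1 and 0.218 for AMPKg3 (permutation adjusted p = 0.535 for both). Without the 2 farthest units on the deposited scale r was 0.633 and 0.437, and on the 2 slides with at least 6 shared units it was 0.688 and 0.554 for CPT-1 and 0.522 and 0.488 for AMPKg3. The lipogenesis gene Spot14a had r = 0.537 with FAS over 37 units (permutation adjusted p = 0.00168; 0.589 without the farthest 2) and r = 0.609 with Pyr-kin over 40 units (permutation adjusted p = 0.000232; 0.625 without the farthest 2). Centred on the panel median neither passed, with r of 0.348 for FAS (permutation adjusted p = 0.458) and 0.160 for Pyr-kin (0.678). On those slides the deposited-scale r with Spot14a was 0.309 and 0.618 for FAS and 0.846 and 0.443 for Pyr-kin.

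The genes most like Pyr-kin were Apo-B (rho 0.713 over 35 units), GHR, the growth hormone receptor (rho 0.699 over 32), and H-FABP (rho 0.698 over 44). Those most like ACC were GHR (rho 0.819 over 13 units), IGF-2 (rho 0.758 over 13) and H-FABP (rho 0.740 over 20). These 6 pairs were picked for the highest rho in these data. All 6 passed the adjusted permutation test, at 0.00841 or lower for rho and 0.0139 or lower for r. On this scale 65.3% of all pairs passed for rho and 70.5% for r. The r of the 6 pairs was between 0.697 and 0.803, and it was between 0.638 and 0.706 in each without the farthest 2 units. Only 3 of the 20 ACC values exceeded background by 2 SD. Within the slides the r of Pyr-kin with its 3 genes lay between 0.752 and 0.968. After centring on the panel median the highest rho with Pyr-kin was 0.378 (L-FABP) and with ACC 0.365 (UCP), with r of 0.343 and 0.354, and neither passed the test (permutation adjusted p for rho 0.377 and 0.537). The correlations of Pyr-kin and ACC with other genes on the deposited scale thus stand beside a per-sample level that nearly all panel genes share.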

How the data were processed

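RNA of 48 chicken liver samples, 2 of them technical replicates of 1 extract, was measured on a 20-gene oligonucleotide panel. Each probe had 2 spots and each sample 1 dye. The deposited table holds log2 values of 32 probes by sample, with a code in place of 480 of 1536 values that are missing. The authors' scaling of each sample is not stated. The scanner files hold spot intensity at both wavelengths with local background, quantified with GenePix Pro and not normalized, per the file headers. They do not name the spots, which were assigned to the table's probes by position, in the table's order with the Gapdh probes last. With that order the deposited and scanner values had a median correlation over probes of 0.989. It was at least 0.9 in 45 samples and lowest, 0.769, in sample 4 of 10 weeks. The submitters' series table of linear intensity was not used. At 6 weeks its columns 4, 5 and 6 match the scans deposited for samples 5, 6 and 3. Which scan belongs to which of these birds is not known. Set against the scans under their own names, the deposited log2 values gave correlations over probes of 0.996 in sample 4, 0.959 in sample 5 and 0.971 in sample 6.

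The deposited log2 values were analysed as they stand, with missing values left out of each gene's fit. Fits used limma 3.58.1 in R 4.3.3 over all 20 genes, with age and dye as terms, and Benjamini-Hochberg adjusted p-values were called at 0.05. Pairwise tests were adjusted over genes and age pairs together. Spread and correlation used 100000 permutations (10000 for alternatives) in Python 3.11.15 (numpy 2.4.6, scipy 1.17.1). Correlations needed 6 shared units and similar genes 12. Alternatives from scanner intensities were centred on each sample's panel median. For deposited values the panel median was that of the genes measured in a sample, 3 to 20 of them. Its gene content thus differed between samples, and it included the 3 enzymes where measured. Above background means over 2 SD of local background. The number of arrays limits precision, and p-values measure the spread between samples that the submitters list as biological replicates. Samples fell on 11 slides, told apart by scan, of which 9 held more than 1 age. The replicate numbers do not pair the samples: 24 of 71 same-numbered pairs correlated above 0.1, with a median of -0.055. The fits and permutation tests were checked on simulated data. With the same design and missing values and independent genes, the age F test called 2 of 60 genes given a log2 change of 1 at 12 weeks. It called 27 of 60 at a change of 2 and 54 of 60 at a change of 3.

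The 3 genes, the lists and the tests were chosen with earlier results of these data known. Named genes are the 3 enzymes, the panel's other lipogenesis genes and AMPK subunits, the 3 genes most like each enzyme by rho, and any gene past a test's threshold. In all, 16 other settings, a further 3 added after seeing the data, and the removal of each of the 48 samples in turn were run.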

Additional observations from a re-analysis of the deposited data

Results flagged for a closer look

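Signal was found in the channel of the dye that a sample did not carry. Pyr-kin exceeded background by 2 SD in the Cy3 channel of 6 of the 24 samples labelled with Cy5, and in the Cy5 channel of 9 of the 24 labelled with Cy3. ACC did so in the Cy5 channel of 1 Cy3 sample, at 13.2 SD, and FAS in 0 samples of either kind, as did the blank and the corn control. For Pyr-kin the highest such signal was 3.19 SD in the Cy3 channel and 3.72 SD in the Cy5 channel. CPT-1 and OBR, both called for dye, each showed it in 17 Cy5 samples and 6 Cy3 samples, H-FABP in 4 and 8, and UCP in 0 and 2. What these signals come from was not tested.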

How the results depend on the processing

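The absence of age calls held in every setting run: 0 genes in the F test, 0 age pairs and 0 slopes under 13 alternatives and with each of the 48 samples left out. In the simulated data the F test missed most log2 changes of 1 at 12 weeks, so 0 calls do not show that levels were equal. The FAS dye difference stayed called under 11 of 13 alternatives, at 1.34 to 2.07 where called, and without any 1 sample (1.71 to 2.19). It was not called with panel-median centring and slide block together (1.01) or as FAS minus Pyr-kin (1.32), both added after seeing the data. Genes called for dye fell from 4 to 2 with slide as a block, with the replicate block, and with centring and slide together, and were 2 to 5 over all alternatives. FAS and Pyr-kin, 1 of 3 pairs called, gave 0 of 3 called pairs with centring on the panel median or housekeeping mean, scanner intensities (with or without spots of extreme background), sample 5 for the technical pair, the slide block, Cy5 samples alone, and the mean of other genes as a term. Their r was -0.127, -0.0165, 0.0299, -0.0142, 0.334, 0.337, 0.206 and -0.0978 in that order, and 0.255 with the replicate block. The scanner intensities were centred on each sample's panel median as well, so those settings are not independent of panel-median centring. Leaving out 1 sample gave an r for FAS and Pyr-kin of 0.241 (without sample 6 of 12 weeks) to 0.442, with the call lost in 18 of 48 cases. Genes whose measured share differed by dye were 2 by scanner signal and 0 to 4 with 1 sample left out, and genes called for spread were 0 to 1.

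Signs of uncalled values turned as follows. The FAS slope was 0.070 with panel-median centring, 0.078 and 0.029 from scanner intensities (all spots, extreme spots left out), and 0.041 with centring and slide together. All of these settings hold panel-median centring, the scanner intensities included. The FAS 12 minus 10 weeks difference was 0.20 with panel-median centring, and its 12 minus 6 weeks difference 0.45, 0.35, 0.033 and 0.51 in the order of the slopes. The ACC differences became 0.20 and 0.25 with panel-median centring, and 0.31 and 0.22 with slide as well. With both, Pyr-kin had a slope of 0.045 and differences of 0.38 and 0.18. The ACC dye coefficient was -0.41 (panel median), -0.32 (housekeeping mean), -0.28 and -0.34 (scanner), -0.46 (missing values at the sample's lowest), -0.24 (slide) and -0.79 (centring and slide), and -0.25 to 0.34 with 1 sample left out. For FAS and ACC r was -0.0705 and -0.0667 from scanner intensities and -0.294 in Cy5 samples. For Pyr-kin and ACC it was -0.0485 from scanner intensities, -0.0619 with the mean of other genes, and 0.485 (called) with the replicate block. The causes were not tested. Signal over background limits ACC, of whose 20 values 3 exceeded it by 2 SD. ACC was left out where only genes measured in at least 24 samples were fitted.

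The replicate numbers do not pair the samples. The replicate block left the age tests at 0 calls, with 16 of 20 genes below 0 for 12 minus 10 weeks, and 3 of 48 samples correlated best with their own number. For the slide and replicate blocks, sample 5 alone stood for the technical pair.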
